A study of Mus musculus with 60 samples.

Results

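The cell cycle and proliferation genes described here are 38 mouse genes taken from a fixed list of symbols. All 38 were found among the 54232 gene IDs of the study's raw count table, of which 54079 carry a symbol and 36287 had a count in at least 1 library. The study sequenced mRNA of 3 mouse tissues, namely liver, subcutaneous fat and visceral fat, after 12 weeks of feeding with a control chow (11% of it fat) or a Western diet (42% fat), with or without NaKtide, in 12 groups of 5 libraries. NaKtide is a peptide that blocks the signalling of the Na,K-ATPase through Src, and transgenic mice were made to express it by feeding doxycycline at 300 mg/kg of food. The labels do not say whether the mice without NaKtide carried the transgene or ate doxycycline, nor do they give the promoter that drives it, although the title of the study speaks of adipocytes. Strain and age are not named in the labels, nor is it stated whether 1 mouse gave all 3 tissues. The transgene is not analysed here, so no value tests the NaKtide labels. The p-values measure the spread between libraries labelled as replicates.

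A dividing cell passes from G1, when D and E cyclins drive the inactivation of the Rb protein and free E2F factors, through S phase, when Mcm helicases loaded with Cdc6 and Cdt1 open the origins and ribonucleotide reductase, thymidylate synthase and thymidine kinase supply deoxynucleotides, to mitosis under cyclin B and Cdk1. The late genes, such as Mki67, Top2a and the mitotic kinases, are repressed in resting cells by the DREAM complex through CHR elements, often next to CCAAT boxes bound by NF-Y. Hepatocytes and adipocytes of an adult mouse rarely divide, and macrophages and progenitors are known to proliferate in the fat of obese mice.

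The 38 genes fall into 4 G1 and S cyclins (Ccnd1, Ccnd2, Ccne1, Ccne2), 9 genes of origin licensing and replication (Cdc6, Cdt1, Mcm2 to Mcm7, Pcna), 4 of deoxynucleotide supply (Rrm1, Rrm2, Tyms, Tk1), 6 mitotic cyclins, Cdk1 and genes of protein degradation (Ccna2, Ccnb1, Ccnb2, Cdk1, Cdc20, Ube2c), 6 mitotic kinases and checkpoint genes (Aurka, Aurkb, Plk1, Bub1, Bub1b, Birc5), and 9 of chromosomes, spindle and cytokinesis (Mki67, Top2a, Kif11, Kif20a, Cenpe, Cenpf, Nusap1, Prc1, Tpx2). For 30 of the 38 a RefSeq table of the GRCm38.p6 build holds 32 promoters, Mcm7 and Prc1 having more than 1. The 250 bases before each start were searched on both strands for the CHR words TTTGAA and TTCGAA, for CCAAT, and for the E2F words TTTCCCGC, TTTGGCGC, TTTCGCGC and TTTGCCGC. A CHR word stood in 11 of the 32 promoters against 17.1% of all 32851 in the table, CCAAT in 25 against 33.8%, and an E2F word in 5 against 1.86%. E2F words were in 4 of 9 promoters of the replication genes. CHR words were in 4 of 5 of the mitotic cyclins, Cdk1 and degradation genes and in 4 of 8 of the chromosome genes. They were in 1 of 5 of the mitotic kinases and checkpoint genes and in 2 of 9 of the replication genes. Cdk1, Cdc20, Top2a and Mki67 held a CHR word, while Ccnb1, Plk1, Aurka, Bub1, Birc5, Cenpe, Cenpf and Nusap1 held none. The stretches below belong to members whose values follow, to show early (Mcm6, Rrm2, Tk1) beside late genes (Cdk1, Cdc20, Top2a, Mki67). They run 5′ to 3′ on the strand of the gene, capitals mark the searched words on either strand, and the first capital run of Mcm6 holds a pair of overlapping E2F words. Tk1 held none of them and is shown over all 250 bases. A matching word is a description of the letters and not a shown binding site.
Mcm6 (chr1:128359706-128359827, minus strand, 122 to 1 bases before the start): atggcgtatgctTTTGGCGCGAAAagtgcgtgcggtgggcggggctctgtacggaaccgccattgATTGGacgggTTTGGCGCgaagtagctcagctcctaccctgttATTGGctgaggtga
Rrm2 (chr12:24708192-24708220, plus strand, 62 to 34 bases before the start): ggtcagcggcgtCCAATgggaggcgaggc
Tk1 (chr11:117826015-117826264, minus strand, 250 to 1 bases before the start): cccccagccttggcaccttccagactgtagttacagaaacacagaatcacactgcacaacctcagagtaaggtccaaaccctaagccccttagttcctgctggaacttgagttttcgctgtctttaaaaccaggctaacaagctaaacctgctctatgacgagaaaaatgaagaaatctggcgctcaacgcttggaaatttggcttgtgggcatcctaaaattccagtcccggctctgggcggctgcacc
Cdk1 (chr10:69352913-69353132, minus strand, 220 to 1 bases before the start): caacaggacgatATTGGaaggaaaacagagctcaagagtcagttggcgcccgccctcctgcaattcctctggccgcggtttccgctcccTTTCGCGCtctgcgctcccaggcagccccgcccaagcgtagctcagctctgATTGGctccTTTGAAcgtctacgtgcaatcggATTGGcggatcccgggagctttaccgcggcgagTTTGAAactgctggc
Cdc20 (chr4:118437344-118437408, minus strand, 65 to 1 bases before the start): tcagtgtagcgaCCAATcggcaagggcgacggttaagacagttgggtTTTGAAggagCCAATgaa
Top2a (chr11:99024195-99024428, minus strand, 239 to 6 bases before the start): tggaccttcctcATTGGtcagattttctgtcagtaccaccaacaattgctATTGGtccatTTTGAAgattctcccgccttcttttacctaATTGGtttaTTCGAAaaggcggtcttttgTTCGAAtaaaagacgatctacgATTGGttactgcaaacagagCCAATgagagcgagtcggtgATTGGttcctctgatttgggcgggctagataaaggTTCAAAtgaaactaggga
Mki67 (chr7:135716460-135716579, minus strand, 200 to 81 bases before the start): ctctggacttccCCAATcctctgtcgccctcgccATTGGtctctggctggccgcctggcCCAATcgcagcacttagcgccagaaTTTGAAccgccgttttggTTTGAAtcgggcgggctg

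Depth was 3.18 to 9.78 M counts per library. The labelled tissues carried their own transcripts: 10 hepatocyte genes summed to 32893 to 53599 CPM (counts relative to the library's total, after TMM scaling) in liver, and adipocyte genes were high in all fat libraries but visceral control 5. Some libraries stood apart. Of the 20 visceral libraries, 8 held over 1000 CPM of 24 testis and epididymis genes, namely control 3, 4 and 5, control with NaKtide 1, Western 1, and Western with NaKtide 2, 3 and 5. Testis carries much mitotic and meiotic mRNA, so visceral results are given with these 8 libraries and without them. In subcutaneous fat, control 2 and Western with NaKtide 1 had 2708 and 3977 CPM of 16 macrophage genes against 628 to 1838 in the other 18 libraries. In liver, control 2 and 4 held muscle transcripts, and leaving out library 1 of both Western diet groups moved many calls, so liver results are also given without them.

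Compared per length, in FPKM, the order of levels was headed in every tissue by Pcna, the sliding clamp of DNA polymerase, with a median of 12.9 in liver, 13.7 in subcutaneous fat and 18.2 in visceral fat. In liver it was followed by Tk1 with a median of 6.83 FPKM, the helicase subunit Mcm7 with 4.47 and Rrm2 with 2.70. In subcutaneous fat Ccnd2, a D cyclin, came next with 10.7 FPKM, then Mcm7 with 4.40 and Ccnd1 with 4.11. In visceral fat the medians were 13.2 FPKM for Ccnd2, 5.76 for Ccnd1 and 4.74 for Mcm7. Cenpf and the checkpoint kinase Bub1 were lowest in all 3 tissues. No gene in this order was above its lower neighbour in every library of a tissue, so neighbours overlap. The low end of this order was near the limit of these libraries: 8 genes in liver and 3 in subcutaneous fat had a median under 0.1 FPKM. In liver these were mitotic genes together with Ccne2 and Cdc6.

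**Figure D1:**
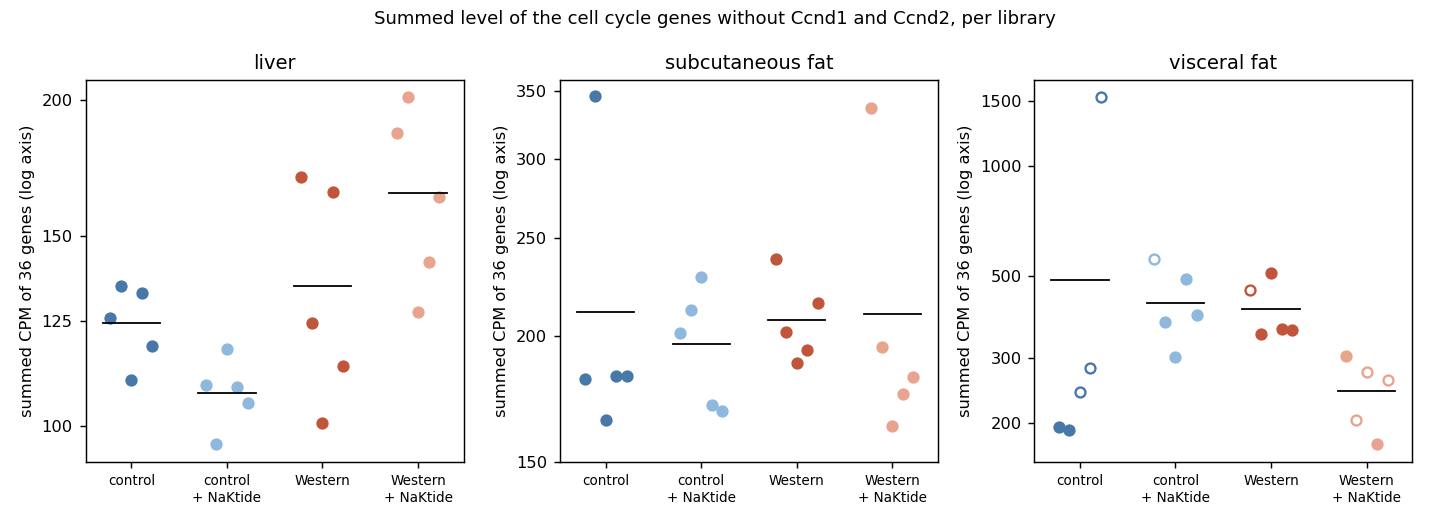
Summed level of 36 of the genes, without the D cyclins Ccnd1 and Ccnd2, in CPM on a log axis. Each point is a library, bars are group means and open points are the 8 visceral libraries above 1000 CPM of testis and epididymis genes; visceral control library 5 stands highest at 1536 CPM.

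In liver 23 of the 38 genes passed the filter on low counts, 7 of them (Ccne1, Ccnb2, Cdc20, Ube2c, Birc5, Mki67 and Top2a) only through 1 group, which for all but Birc5 was Western diet with NaKtide. Only through 1 group, here and below, means that fewer than 5 libraries outside it reached the filter's cutoff. Such a gene need not differ: for Birc5, 3 of its 5 libraries at the cutoff were outside its top group. Values of these genes between that group and others are a description, since the group was needed to pass the filter. The other 15 were not tested: Ccne2, Cdc6, Ccna2, Ccnb1, Aurkb, Plk1, Bub1, Bub1b, Kif11, Kif20a, Cenpe, Cenpf, Nusap1, Prc1 and Tpx2. The summed level without the D cyclins was 110 to 135 CPM on control diet, 96.2 to 118 with NaKtide, 101 to 170 on Western diet and 128 to 201 on Western diet with NaKtide.

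In liver the smallest adjusted p-values on Western diet belonged to a pair of enzymes of deoxynucleotide supply that moved in opposite directions. Rrm2, the regulated subunit of ribonucleotide reductase, rose and Tk1, the salvage kinase for thymidine, fell. Ccnd1, Mcm3 and Mki67 also rose. In all, 5 of the 23 tested genes were called at adjusted p 0.05 (edgeR's quasi-likelihood test, Benjamini-Hochberg over all genes), 4 higher and 1 lower, where 8.44% of all 12991 genes tested were called and 4.75% were called higher. The median log2 difference was 0.78 over the 23 tested genes, these 7 included, and 0.03 over all genes. In bulk tissue, fewer cells of a type and less RNA per cell cannot be told apart.

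Tk1 stood at 38.9, 41.5, 45.2, 55.7 and 40.7 CPM in control livers 1 to 5 and at 26.9, 25.8, 27.6, 14.7 and 26.3 CPM in control livers with NaKtide. On Western diet it was at 12.1, 8.57, 8.09, 13.7 and 12.4 CPM, and with NaKtide at 21.4, 25.2, 22, 15.5 and 15.9 CPM. All 5 control livers were above all 15 others, and the 5 Western livers without NaKtide were below all 15 others. Tk1 fell by 2.01 ± 0.19 (adjusted p = 3.0e-06) on the log2 scale (± SE) on Western diet without NaKtide, from 44.4 ± 6.71 to 11.0 ± 2.49 CPM (SD, n = 5). With NaKtide the difference between the diets was -0.27 ± 0.19 (adjusted p = 0.30), from 24.2 ± 5.37 to 20.002 ± 4.19 CPM. NaKtide itself went with less Tk1 on control diet, -0.88 ± 0.18 (adjusted p = 0.018), and with more on Western diet, 0.87 ± 0.20 (adjusted p = 0.013). The difference between these effects, tested as an interaction, was 1.75 ± 0.27 (adjusted p = 0.0012), in a comparison where 5% of all genes were called, 2.07% higher and 2.93% lower. Both NaKtide contrasts share their reference libraries with the diet contrast.

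Rrm2 ran the other way. It was at 3.09, 2.62, 1.58, 1.52 and 1.56 CPM in the control livers and at 5.95, 11, 8.81, 13 and 9.71 CPM in the Western livers. With NaKtide it was at 3.1, 4.26, 3.8, 4.42 and 7.11 CPM on control diet and at 6.86, 7.42, 2.69, 5.65 and 5.84 CPM on Western diet. Control and Western livers did not overlap without NaKtide, and did with it. The diet difference was 2.20 ± 0.30 (adjusted p = 9.3e-05) without NaKtide and 0.35 ± 0.28 (adjusted p = 0.36) with it, and the interaction was -1.85 ± 0.41 (adjusted p = 0.017). The NaKtide contrasts did not pass for Rrm2, with log2 differences of 1.11 ± 0.31 (adjusted p = 0.078) on control and -0.75 ± 0.27 (adjusted p = 0.10) on Western diet. The partner subunit Rrm1 and thymidylate synthase, Tyms, were not called in any liver contrast. Tk1 shares 83 exonic bases, 1.60% of its exonic length, with Afmid on the opposite strand, and how the counting treated strand is not given in the sources used. Afmid, a kynurenine pathway enzyme, also fell on Western diet, by 1.32 ± 0.29 (adjusted p = 0.0071) without NaKtide and by 1.45 ± 0.29 (adjusted p = 0.0022) with it, but its NaKtide contrasts did not pass.

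Of the G1 cyclins, Ccnd1, which links growth factor signals to the Rb protein, was at 3.09, 2.45, 0.632, 0.866 and 1.56 CPM on control and 7.48, 8.73, 5.76, 9.13 and 3.69 CPM on Western diet. With NaKtide the values were 4.08, 1.62, 3.01, 10.5 and 3.86 CPM on control and 13.9, 9.38, 7.25, 10.7 and 12.7 CPM on Western diet. The Western livers without NaKtide were all above the controls, while with NaKtide control liver 4 reached into the Western range. Ccnd1 rose on Western diet by 1.97 ± 0.44 (adjusted p = 0.0069) without NaKtide and by 1.19 ± 0.37 (adjusted p = 0.026) with it. It shares 23.4% of its exonic bases with LTO1 on the opposite strand, which was not called (log2 difference 0.19 ± 0.14 (adjusted p = 0.42)). Ccne1, the cyclin of S phase entry, differed between the diets with NaKtide by 1.79 ± 0.39 (adjusted p = 0.0035), but passed the filter only through the Western NaKtide group. Ccnd2 was not called.

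**Figure D2:**
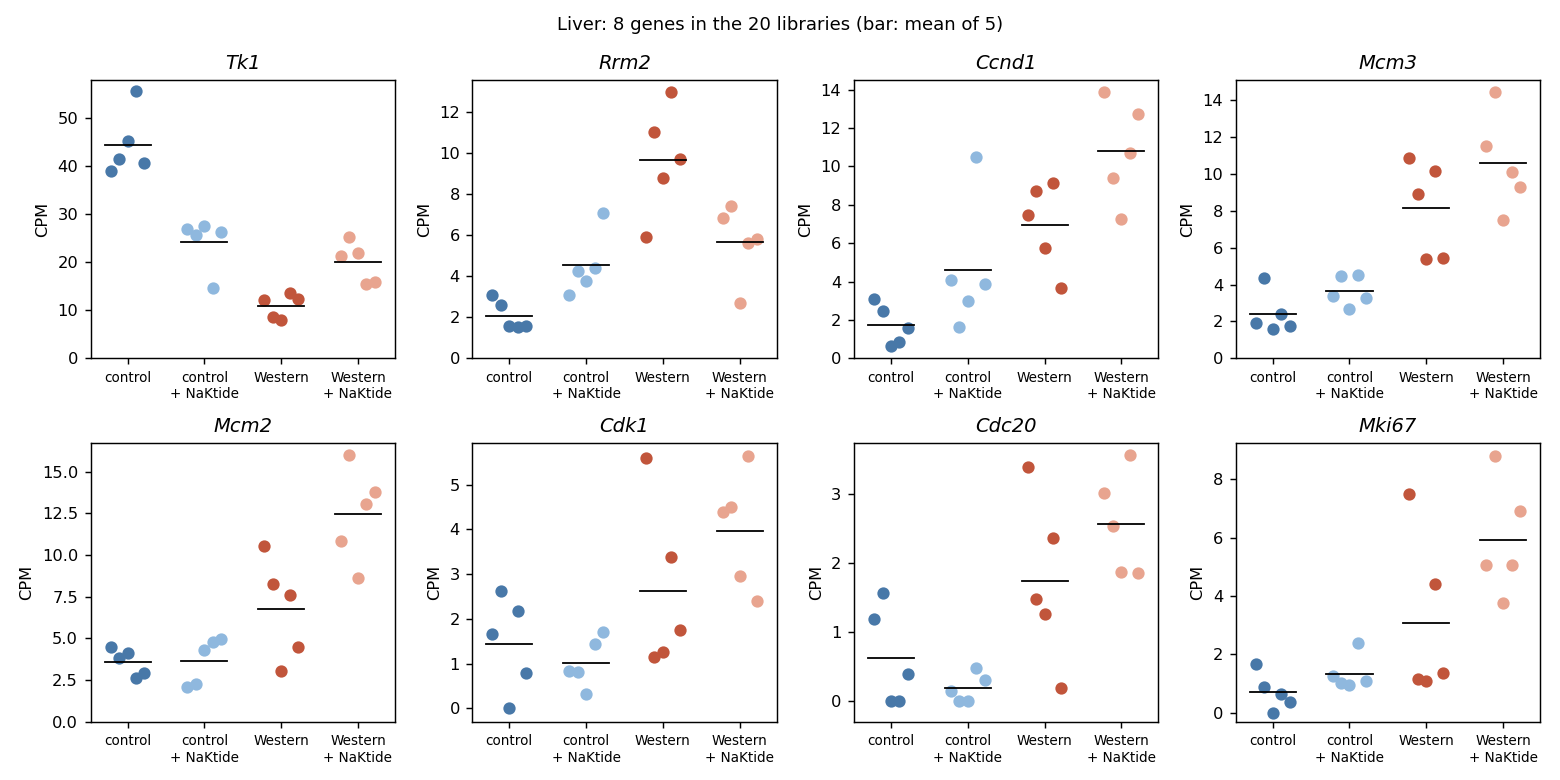
CPM of 8 of the genes in each of the 20 liver libraries, by group, with points for libraries and bars for means. Tk1 is highest in the 5 control livers and lowest in the 5 Western livers without NaKtide, and Rrm2 is higher in all 5 Western livers without NaKtide than in the control livers.

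Among the replication genes, the Mcm3 subunit of the replicative helicase rose on Western diet in both comparisons. Mcm3 was at 1.9, 4.37, 1.58, 2.38 and 1.76 CPM in the control livers and at 10.9, 8.9, 5.4, 10.1 and 5.44 CPM in the Western livers. With NaKtide it was at 3.38, 4.47, 2.69, 4.54 and 3.25 CPM on control and 11.5, 14.5, 7.52, 10.1 and 9.29 CPM on Western diet. The diets did not overlap in either comparison, and Mcm3 rose by 1.71 ± 0.29 (adjusted p = 7.5e-04) without and by 1.54 ± 0.27 (adjusted p = 6.5e-04) with NaKtide. Mcm2 was at 2.11, 2.23, 4.28, 4.78 and 4.95 CPM in the control livers with NaKtide and at 10.8, 16, 8.59, 13.1 and 13.8 CPM in the Western livers with NaKtide, again without overlap. It rose there by 1.74 ± 0.30 (adjusted p = 5.8e-04). Without NaKtide the Mcm2 difference was 0.93 ± 0.32 (adjusted p = 0.072). For Mcm6 the differences were 1.53 ± 0.45 (adjusted p = 0.019) with and 1.40 ± 0.46 (adjusted p = 0.064) without NaKtide, and Mcm7 and the licensing factor Cdt1 were called higher only in the comparison with NaKtide, by 0.51 and 0.98. Whether any of these differ between the comparisons was tested through the interaction, which none of the Mcm genes passed. Mcm4, Mcm5 and Pcna were not called.

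Of the mitotic genes called between the diets with NaKtide, only Cdk1, the mitotic kinase, passed the filter outside its highest group. Cdk1 rose by 1.92 ± 0.51 (adjusted p = 0.012). The interaction called no mitotic gene in liver, so a difference from the comparison without NaKtide is not shown. Cdc20, Ccnb2, Ube2c and Top2a passed the filter only through the Western NaKtide group, and their values are a description. Cdc20, the activator of the anaphase-promoting complex, was at 0.141, 0, 0, 0.478 and 0.309 CPM on control diet with NaKtide and at 3.02, 2.54, 1.88, 3.57 and 1.86 CPM on Western diet with NaKtide, a difference of 3.50 ± 0.72 (adjusted p = 0.0024). The Cdc20 groups did not overlap, although the control values are at or near 0. The difference was 2.15 ± 0.53 (adjusted p = 0.0073) for Ccnb2, the partner of Cdk1, and 2.17 ± 0.63 (adjusted p = 0.018) for Ube2c, which marks cyclins for degradation. For Top2a, the topoisomerase that untangles sister chromatids, it was 2.02 ± 0.59 (adjusted p = 0.019). Ccnb1 was at 0 in 9 of the 20 livers and at most 1.37 CPM, and could not be tested.

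Mki67, which codes for the Ki-67 proliferation antigen, was at 1.66, 0.874, 0, 0.65 and 0.391 CPM in control livers and 7.48, 1.15, 1.08, 4.4 and 1.36 CPM in Western livers. With NaKtide it was at 1.27, 1.02, 0.95, 2.39 and 1.08 CPM on control and 5.08, 8.79, 3.76, 5.05 and 6.9 CPM on Western diet. Western liver 1 held the highest value of its group at 7.48 CPM, and 3 of the 5 Western livers lay within the control range. The diet difference without NaKtide, 2.04 ± 0.60 (adjusted p = 0.036), passed, but without Western liver 1 and Western with NaKtide liver 1 Mki67 was no longer called. With NaKtide the difference was 2.09 ± 0.50 (adjusted p = 0.0062) and the groups did not overlap, but Mki67 too passed the filter only through the Western NaKtide group.

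Across the comparison of diets with NaKtide, 13 of the 23 tested genes were called, all higher, where 24.5% of all genes were called and 12.9% were called higher. Of the 13, 6 passed the filter only through the Western NaKtide group, namely Ccne1, Ccnb2, Cdc20, Ube2c, Mki67 and Top2a. Among the 16 genes that passed it outside their highest group 7 were called: Ccnd1, Cdt1, Mcm2, Mcm3, Mcm6, Mcm7 and Cdk1. None of the 4 genes of deoxynucleotide supply was called. NaKtide on control diet called 1 gene, Tk1, against 1.55% of all genes, and NaKtide on Western diet again only Tk1, against 4.79% (2.24% higher, 2.55% lower). Without library 1 of both Western diet groups, a fit chosen after seeing the data, the diet contrast called 4 of 22 tested genes (8.28% of all genes) and the contrast with NaKtide 12 (36.8%). In that fit NaKtide on Western diet called 7 of 22, a share near the 27.4% of all genes. Mcm2 and Tk1 were higher there and Pcna and Rrm2 lower, with Rrm2 at -0.95 ± 0.29 (adjusted p = 0.019). Ube2c, Mki67 and Top2a were also called higher. With no liver left out, these genes had passed the filter only through the Western NaKtide group, and their values are a description. Without the muscle-rich control livers 2 and 4, Western diet called 5 of 26 tested genes (4.87% of all genes, 2.86% higher), with Mcm6 in place of Mki67. In the same fit Tk1 was no longer called on control diet with NaKtide and no other gene took its place (0.616% of all genes called).

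**Figure D3:**
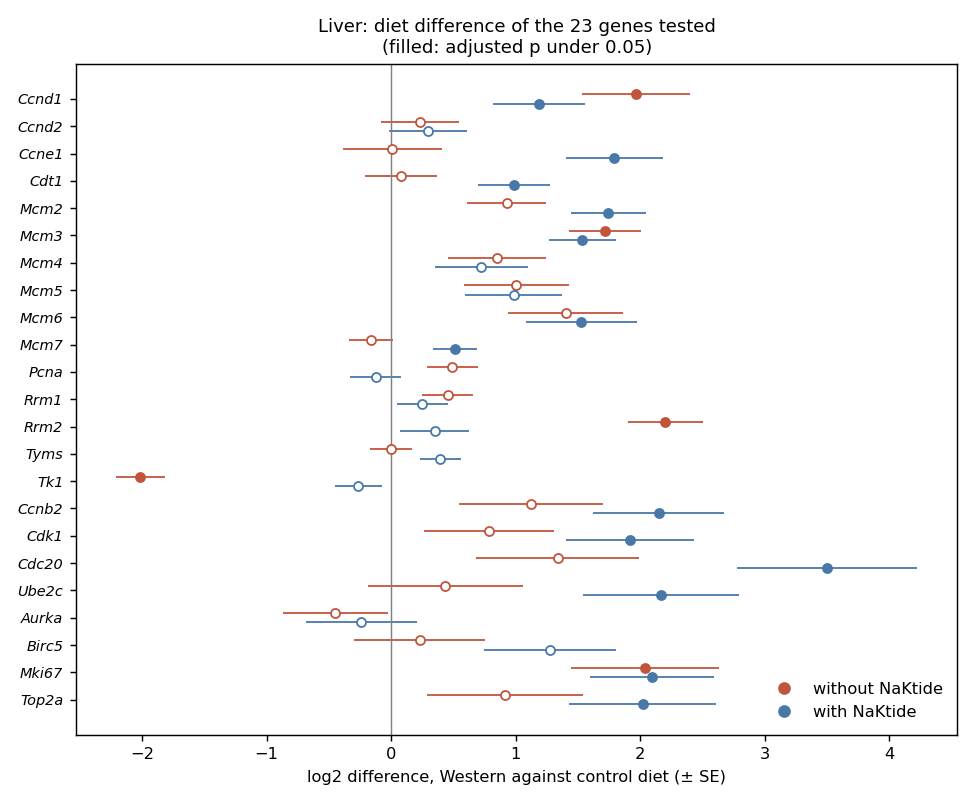
Log2 differences between Western and control diet in liver for the 23 tested genes, without NaKtide and with it, with SE bars and filled symbols for adjusted p under 0.05. Without NaKtide Rrm2 is at 2.20 and Tk1 at -2.01, and of the mitotic genes filled in the comparison with NaKtide all but Cdk1 passed the filter only through the Western NaKtide group.

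Markers of other liver cells were summed in the same libraries. The 16 macrophage genes summed to 152 to 347 CPM on control diet, 218 to 446 on control with NaKtide, 274 to 564 on Western and 652 to 794 on Western with NaKtide, with Gpnmb at 0 in 6 of the 10 control-diet livers. The 8 cholangiocyte genes summed to 14.47 to 36.03, 17.2 to 33.2, 36.3 to 108 and 66.9 to 278 CPM in the same order, with Cftr at 0 in 12 of the 20 livers. Their part in the changes of the cell cycle genes was not tested. Germ cell transcripts, at no more than 8.39 CPM in any liver, were near 0.

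Other genes of the pathway were counted from 5 further lists. Cdkn1a, the p21 inhibitor of Cdks, rose on Western diet by 2.91 ± 0.50 (adjusted p = 8.2e-04) without and by 2.52 ± 0.46 (adjusted p = 0.0010) with NaKtide. Without NaKtide, none of the 14 tested further mitosis genes (of 34) and none of the 20 tested further replication genes (of 28) was called, where 8.44% of all genes were. With NaKtide, where 24.5% of all genes were called, 5 of the 14 mitosis genes were called, all higher, among them Mad2l1 of the spindle checkpoint at 1.42 ± 0.29 (adjusted p = 0.0023) and Cdca3 at 1.66 ± 0.39 (adjusted p = 0.0053). Kif22, 1 of these 5, passed the filter only through its highest group, and 4 of the other 13 were called. Of the 20 replication genes 6 were called, a share near that of all genes: 5 were higher, such as DNA ligase Lig1 at 1.16 ± 0.27 (adjusted p = 0.0048), and Mcm10 was lower at -1.16 ± 0.24 (adjusted p = 0.0028). Pole, 1 of these 6, passed the filter only through its highest group, and 5 of the other 19 were called. Trp53 was higher and Rbl2 and Lin54, the pocket protein p130 and a DREAM subunit, were lower, at 0.63 ± 0.15 (adjusted p = 0.0074), -1.13 ± 0.39 (adjusted p = 0.038) and -1.16 ± 0.40 (adjusted p = 0.039). None of the 8 tested other cyclins, Cdks and Cdc25 genes was called.

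In subcutaneous fat none of the cell cycle genes passed the test in any of the 5 contrasts. All but Ccne2, Ccnb1, Bub1, Kif20a and Cenpf were tested, Plk1 only through its highest group, making 33. On Western diet without NaKtide 5.61% of all 15226 genes were called (2.21% higher, 3.4% lower), and in the other 4 contrasts 0% were. At an unadjusted p under 0.05 there were 5 of the 33 in the diet contrast, 2 in the diet contrast with NaKtide, 0 for NaKtide on control diet, 3 for NaKtide on Western diet and 4 in the interaction. The share of all genes at that unadjusted threshold is not given here, so these counts are only a description. The 3 smallest p-values for diet belonged to Mcm3 at 0.72 ± 0.22 (adjusted p = 0.056), Cdc6 at -1.03 ± 0.37 (adjusted p = 0.11) and Mcm5 at 0.87 ± 0.33 (adjusted p = 0.12). Mcm3 was at 8.61, 12.3, 5.49, 9.45 and 8.0 CPM on control diet and 15.9, 13.9, 13.8, 14.8 and 13.7 CPM on Western diet, where the groups did not overlap. DESeq2 called Mcm3 alone in this contrast and none in the other 4.

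A pair of libraries held the high values in subcutaneous fat. Mki67 was at 7.87, 27.8, 3.11, 7.09 and 2.46 CPM on control and 10.5, 5.74, 4.37, 2.66 and 11.7 CPM on Western diet. With NaKtide it was at 3.62, 0.642, 7.33, 3.08 and 2.82 CPM on control and 22.1, 7.32, 3.7, 4.37 and 4.95 CPM on Western diet. Control 2 and Western with NaKtide 1, the macrophage-rich libraries, held the highest Mki67 of all 20 at 27.8 and 22.1 CPM. Each of them was also the highest of the 20 libraries for 12 of the 38 genes. Top2a reached 14.4 and 14.3 CPM and Ccnb1 2.14 and 4.56 CPM in these libraries, with Ccnb1 at 0.162 to 1.29 CPM elsewhere. Western with NaKtide 1 also held 332 CPM of 12 germ cell genes, and their part in its values was not tested. Without both libraries, a setting added after seeing the data, Mcm3 and Mcm5 were called on Western diet, at 0.86 ± 0.18 (adjusted p = 0.024) and 1.09 ± 0.29 (adjusted p = 0.048), 2 of 32 tested where 3.59% of all genes were called. No gene was called in the other contrasts.

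Diet differences of the remaining named genes in subcutaneous fat were 0.44 ± 0.18 (adjusted p = 0.15) for Ccnd1, 0.14 ± 0.26 (adjusted p = 0.78) for Mcm6, -0.41 ± 0.55 (adjusted p = 0.67) for Rrm2 and -0.11 ± 0.65 (adjusted p = 0.94) for Top2a. Skeletal muscle transcripts differed by diet, at 7881 to 59210 CPM for 15 genes in the control group and 30.8 to 205 CPM on Western diet. Ube2c shares 22.8% of its exonic bases with the muscle gene Tnnc2 on the opposite strand, and control with NaKtide 2, with 252109 CPM of muscle genes, held the highest Ube2c at 20.5 CPM. The second highest Ube2c was 19.3 CPM, and control with NaKtide 2 was also highest for Aurka, Ccne2, Mcm2, Rrm1 and Tk1. The part of Tnnc2 in the Ube2c values was not tested. Of 5 further lists, 3 of the 6 tested Cdk inhibitors were called on Western diet, against the 5.61% of all genes. Cdkn1c, or p57, fell by 1.98 ± 0.36 (adjusted p = 0.011), Cdkn1b, or p27, fell by 0.73 ± 0.19 (adjusted p = 0.032), and Cdkn2b, or p15, rose by 1.51 ± 0.33 (adjusted p = 0.015).

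In visceral fat 4 S-phase genes, Ccne1, Cdt1, Mcm3 and Mcm6, rose on Western diet and with NaKtide on control diet, and fell with NaKtide on Western diet. Over all 20 libraries 37 of the 38 genes were tested, all but Bub1, with Ccne2 passing only through its highest group. Control 5 was the highest library for 25 of the 38. In it the germ cell genes summed to 10136 CPM, the adipocyte genes to only 1142 CPM, and the mitotic kinases Aurka and Plk1 stood at 139 and 75.0 CPM, Ccnb2 at 106, Cdc20 at 101 and Top2a at 107 CPM. Ccnb1 was at 0.378, 1.07, 1.57, 1.75 and 53 CPM on control, 8.97, 1.88, 1.54, 5.07 and 2.6 on control with NaKtide, 9.05, 2.25, 3.19, 1.92 and 1.27 on Western and 1.93, 0.845, 3.15, 0.464 and 0.917 on Western with NaKtide. Control 5 stands apart, and the next highest, Western 1 and control with NaKtide 1, are also among the 8 libraries with testis or epididymis genes. Others of the 8 were low in Ccnb1. Control 3, control 4 and Western with NaKtide 5 had 16129, 26866 and 30992 CPM of these genes but 1.57, 1.75 and 0.917 CPM of Ccnb1.

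**Figure D4:**
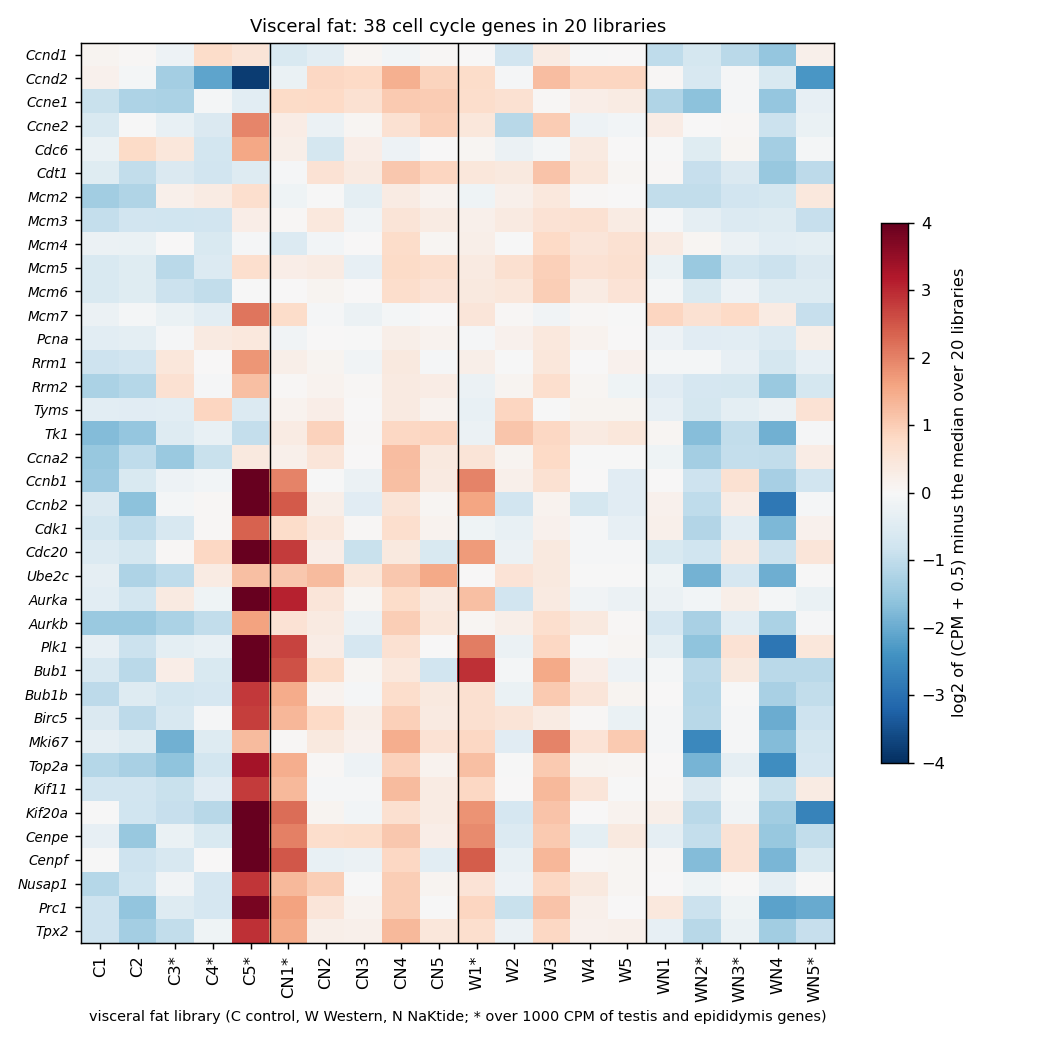
Heat map of the genes in the 20 visceral libraries, as log2(CPM + 0.5) minus the median of each gene over the 20. Asterisks mark the 8 libraries above 1000 CPM of testis and epididymis genes; control 5 is high across the mitotic genes.

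With all 20 libraries, Western diet without NaKtide called 8 of the 37 genes, all higher: Ccnd2, Ccne1, Cdt1, Mcm3, Mcm4, Mcm5, Mcm6 and Tk1. These are 21.6% of the tested members, below the 24.9% of all genes called in either direction and above the 10.5% called higher. None of these is a mitotic gene. The median log2 difference was -0.34 over the 37 genes and -0.22 over all genes. Mcm6 was at 11.5, 12.7, 9.8, 8.92 and 17.8 CPM on control, 18.2, 19.6, 18.3, 29.9 and 26.8 on control with NaKtide, 23.5, 25, 36.2, 22.8 and 26.6 on Western and 17.1, 11.7, 15.6, 12.5 and 12.5 CPM on Western with NaKtide. The 5 Western and the 5 control NaKtide libraries were each above all 5 controls, and the Western NaKtide libraries were below both. The log2 differences were 1.14 ± 0.21 (adjusted p = 0.0020) for diet, 0.89 ± 0.21 (adjusted p = 0.016) for NaKtide on control diet and -0.95 ± 0.21 (adjusted p = 0.0087) for NaKtide on Western diet, with an interaction of -1.84 ± 0.30 (adjusted p = 3.3e-04). Ccnd1, Rrm2 and Ccnb1 were not called on Western diet, with differences of -0.33 ± 0.29 (adjusted p = 0.39), -0.06 ± 0.42 (adjusted p = 0.92) and -1.71 ± 1.05 (adjusted p = 0.22).

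Ccne1, cyclin E1, was also lower in the control and Western NaKtide groups than in the other pair of groups. It was at 3.21, 2.38, 2.35, 6.01 and 4.55 CPM on control, 11, 11.4, 9.998, 13.5 and 13.3 on control with NaKtide, 10.5, 9.89, 6.49, 7.78 and 8.04 on Western and 2.44, 1.69, 6.16, 1.86 and 4.89 CPM on Western with NaKtide. Its groups did not overlap in any of the 4 pairings of diet and NaKtide. The interaction was -2.996 ± 0.50 (adjusted p = 3.8e-04). In all, the interaction called 10 genes, all lower, against 32.2% of all genes (18.8% higher, 13.4% lower), including the S-phase genes Cdt1, Mcm3, Mcm5 and Tk1, the cyclins Ccnd2 and Ccna2, Ube2c, and Mki67 at -2.48 ± 0.84 (adjusted p = 0.032). NaKtide called 5 genes higher on control diet (7.15% of all genes called, 5.26% higher and 1.9% lower). It called 5 lower on Western diet (13.2% called, 6.23% higher and 6.95% lower), and Western diet with NaKtide called 4 lower (4.82% called, 3.49% lower). Western diet and NaKtide on control diet share the control group, of which 3 of 5 libraries held testis or epididymis transcripts.

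Without the 8 libraries, 2 control, 4 control NaKtide, 4 Western and 2 Western NaKtide libraries remained. They still held some of these transcripts. Germ cell genes summed to 1.70 to 199, 16.3 to 32.3, 16.1 to 21.7 and 1.97 to 62.0 CPM in that order of groups. Epididymis genes summed to 14.7 to 193, 4.77 to 174, 0.490 to 2.55 and 1.83 to 10.2 CPM. Their part in the calls was not tested. In this fit the calls spread to the rest of the list. Western diet called 13 of 37 genes, all higher (17.7% of all 16494 genes called), 5 of them among the 8 called before. NaKtide on control diet called 14, all higher (13.9%). NaKtide on Western diet called 11 (21.6%), 10 lower and Mcm7 higher, and Western diet with NaKtide called 8 (14.8%), 7 lower and Mcm7 higher. The shares of all genes in these contrasts count both directions, and shares by direction are not given beside them. The interaction called 23, all lower, against 28.7% of all genes, and held all 10 called before. The median interaction was -2.26 on the log2 scale over the 37 genes and 0.03 over all genes. By role the 23 were 2 of 4 G1 and S cyclins, 6 of 9 replication genes, all 4 deoxynucleotide genes, 2 of 6 mitotic cyclins, Cdk1 and degradation genes, 3 of 5 tested kinases and checkpoint genes and 6 of 9 chromosome genes.

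In these 12 libraries Ccne1 was at 3.29 and 2.43 CPM in control 1 and 2, 11.7, 10.2, 13.8 and 13.5 in control NaKtide 2 to 5, 10.1, 6.59, 7.93 and 8.2 in Western 2 to 5 and 2.49 and 1.9 CPM in Western NaKtide 1 and 4. The control and the Western NaKtide libraries were all below the other 8. Its interaction was -3.98 ± 0.39 (adjusted p = 3.3e-05). Mcm2 was at 6.01 and 6.93 CPM on control, 16.4, 12.6, 20.8 and 18.3 on control with NaKtide, 19.2, 22.1, 16.9 and 16.6 on Western and 7.99 and 9.98 CPM on Western with NaKtide, and its interaction was -2.46 ± 0.34 (adjusted p = 2.7e-04). Again the 4 low libraries did not reach the other 8.

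Tk1 and Rrm2, which moved oppositely on Western diet in liver, both rose here. Tk1 was at 1.94 and 2.31 CPM in the control libraries, 14.9, 7.86, 14.1 and 14.4 with NaKtide, 17, 13.8, 10.1 and 10.8 on Western diet and 8.12 and 1.66 on Western diet with NaKtide. Rrm2 was at 1.74 and 1.95 CPM in the controls, 5.51, 5.03, 6.36 and 6.09 with NaKtide, 5.36, 8.04, 5.19 and 4.32 on Western diet and 3.41 and 1.43 on Western diet with NaKtide. On Western diet Tk1 rose by 2.58 ± 0.52 (adjusted p = 0.0060) and Rrm2 by 1.62 ± 0.37 (adjusted p = 0.012); the interactions were -3.88 ± 0.70 (adjusted p = 0.0016) and -2.80 ± 0.52 (adjusted p = 0.0019). For Tk1, Western NaKtide 1 lay within the range of the control NaKtide group and Western NaKtide 4, at 1.66 CPM, was below both controls. With all 20 libraries the Rrm2 difference on Western diet had been -0.06 ± 0.42.

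Of the kinases, Aurkb, which corrects chromosome attachment, was at 0.969 and 0.973 CPM on control, 4.74, 2.99, 7.56 and 5.17 with NaKtide, 4.34, 6.03, 4.9 and 3.78 on Western and 2.1 and 1.19 CPM on Western with NaKtide. The control and Western NaKtide libraries were again below all of the rest, and the interaction was -3.85 ± 0.61 (adjusted p = 6.9e-04). Mki67 was at 10.7 and 9.49 CPM on control, 18.3, 15.4, 38.2 and 20.5 with NaKtide, 9.96, 55.4, 20.3 and 29.1 on Western and 13.1 and 3.8 CPM on Western with NaKtide. Its groups overlapped, with Western 2 within the control range and Western NaKtide 1 above it, and the interaction of -2.91 ± 0.92 (adjusted p = 0.032) passed while the single contrasts of Mki67 did not. Top2a gave -2.73 ± 0.83 (adjusted p = 0.027) in the same test.

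Mcm7, another helicase subunit, ran against the rest. It was at 23.2 and 26.2 CPM on control, 26.8, 23.3, 25.7 and 27.4 with NaKtide, 28.4, 24.8, 28.1 and 27.2 on Western and 49.7 and 34.2 CPM on Western with NaKtide, where it was called higher than in control fat with NaKtide and in Western fat without it. Ccnd2 was at 187 and 155 CPM on control, 290.4, 289, 438 and 303 with NaKtide, 160.0, 381, 299 and 297 on Western and 168 and 108 CPM on Western with NaKtide. Ccnd2 was lower in Western fat with NaKtide than in Western fat without, by 1.04 ± 0.32 (adjusted p = 0.039), and Ccnd1 by 1.21 ± 0.29 (adjusted p = 0.012). On the opposite strand Mcm7 shares 64 exonic bases with Cops6 and 7.25% of its exonic bases with Ap4m1. Over all 20 libraries Cops6 was also highest in Western fat with NaKtide, at 148 ± 12.9 CPM (SD, n = 5) against 99.3 ± 23.97 on Western diet, 109.7 ± 10.1 on control with NaKtide and 121 ± 21.6 on control diet. Ap4m1 was at 25.8 ± 9.95 CPM in Western fat with NaKtide and at 30.3 ± 4.71 CPM without. Their part in the Mcm7 values was not tested.

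**Figure D5:**
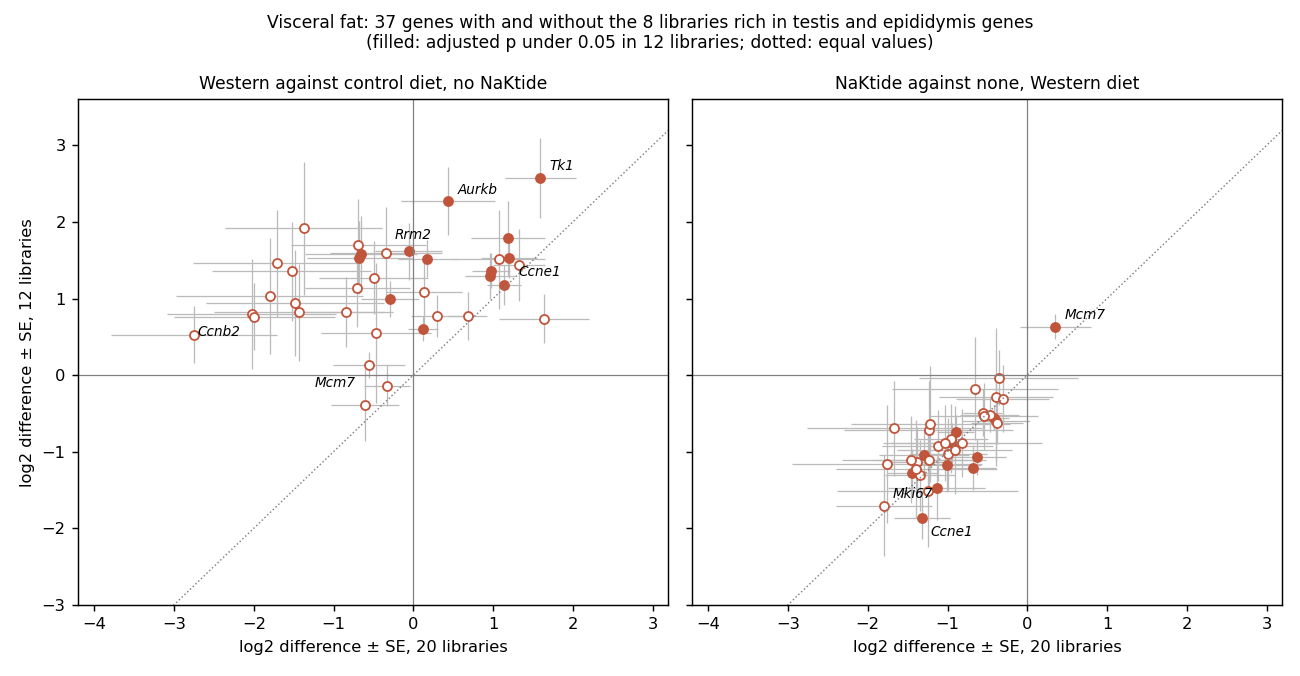
Log2 differences of the genes in visceral fat with all 20 libraries and with the 12 below 1000 CPM of testis and epididymis genes, for Western against control diet and for NaKtide on Western diet. In the diet contrast the median of the 37 genes is -0.34 with all libraries and 1.18 with the 12.

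Among markers of other cells in the 12 visceral libraries, the sums of macrophage, adipocyte and hepatocyte genes separated the 4 control and Western NaKtide libraries from the other 8. The macrophage genes summed to 890 to 981 CPM on control, 3173 to 4495 on control with NaKtide, 3220 to 6159 on Western and 997 to 1929 CPM on Western with NaKtide, with none of the 16 at 0 in any visceral library. Fibroblast progenitor genes overlapped between these sets, at 1442 to 1564, 2599 to 4433, 2579 to 5054 and 1775 to 3957 CPM. Adipocyte genes ran opposite, at 26359 to 29901, 16721 to 20556, 14101 to 19052 and 32737 to 36081 CPM. Hepatocyte genes were at 3041 to 4667 and 2698 to 4334 CPM in the control and Western NaKtide groups and at 84.8 to 700 CPM in the other 8 libraries. Genes of B and T cells also separated them, at 10.7 to 20.2, 23.2 to 31.8, 32.6 to 53.9 and 10.2 to 12.4 CPM. Endothelial genes did not, at 2062 to 2322, 777 to 1335, 937 to 1810 and 1149 to 1443 CPM, nor did erythroid or mesothelial genes. Their part in the cell cycle differences was not tested.

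Further pathway genes in these 12 libraries were called in both directions. Of the 7 Cdk inhibitors 3 were called on Western diet, against 17.7% of all genes: Cdkn1c fell on Western diet by 2.32 ± 0.20 (adjusted p = 6.6e-05) while Cdkn1a and Cdkn2b rose, by 1.77 ± 0.47 (adjusted p = 0.023) and 1.72 ± 0.35 (adjusted p = 0.0062). In the interaction 28.7% of all genes were called, 12.8% higher and 16% lower. There 2 inhibitors were higher and 3 lower, with Cdkn1c at 3.53 ± 0.29 (adjusted p = 9.6e-06). Of 18 Rb, E2F, Myb and Fox regulators 6 were lower in the interaction, among them the activator E2f2 at -3.03 ± 0.43 (adjusted p = 3.4e-04), and none was higher. Of 34 further mitosis genes 11 were lower, among them the kinetochore subunit Spc25 at -4.90 ± 0.67 (adjusted p = 2.6e-04), and 1, Pttg1, was higher. Of 27 tested further replication genes 7 were lower, among them the methylation maintenance factor Uhrf1 at -3.73 ± 0.59 (adjusted p = 7.0e-04), and of 9 tested other cyclins and Cdks 2 were lower, Ccng1 and Cdk6. In either direction, the regulators, replication genes and other cyclins and Cdks were thus called at shares near that of all genes.

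Visceral and subcutaneous fat were compared on control diet without NaKtide, in a model of the 40 fat libraries. In visceral fat 12 of 37 tested genes were higher (27.2% of all 17788 genes called, 19.9% higher; adjusted p 0.0062 to 0.031), from Ccnd1 at a log2 difference of 1.01 to Cenpf at 4.05, among them Ccnb1 at 3.77, Ccnb2 at 3.18, Aurka at 2.68 and Top2a at 2.35. Without the 8 libraries none of the 12 was called, in a comparison of 2 visceral with 5 subcutaneous libraries in which 0.0173% of genes were called. Without visceral control 5 alone 1 was called. The direction turned without the 8 libraries for 7 of these genes, among them Aurka at -1.01 and Prc1 at -0.80.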

How the data were processed

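Libraries of 3 mouse tissues came from a stranded TruSeq kit for mRNA, per the labels' protocols. Per the file headers, the authors deposited raw counts per gene, FPKM values and a normalized signal for 60 libraries. The normalized signal is the counts divided by 1 factor per library (relative tolerance 1e-06), and it was only checked. The FPKM values were used only to order the levels of genes. Trimmomatic 0.38, HISAT2 2.1.0, DESeq2 1.20.0 and the GRCm38 build appear in the submitters' processing notes. The counting program, its strand setting and the annotation are not given in the sources used.

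Counts were tested with R 4.3.3 and edgeR 4.0.16 (quasi-likelihood test, TMM, low counts removed by filterByExpr on the groups, Benjamini-Hochberg over all genes tested, adjusted p 0.05). A model of 4 groups was fitted per tissue over 12991 genes in liver, 15226 in subcutaneous fat and 17235 in visceral fat, and a model of 8 groups over 17788 genes for both fats. SE is the log2 difference divided by the square root of its F value. The scripts were tested on simulated data. No library pair was identical.

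The 38 genes and the gene lists were chosen with earlier results of these data known. Every called member may be named, the 3 smallest p-values where none is called, and Mki67, Top2a, Rrm2, Ccnb1, Ccnd1 and Mcm6 in every tissue. Up to 3 higher and 3 lower genes with the smallest p may be named per further list. Alternatives were RLE scaling, no filter, DESeq2 1.42.0, the replicate number as a block, and leaving out libraries. Replicate numbers were not used to pair libraries. Within a tissue, same-numbered libraries of different groups correlated above 0.1 in 5 of 30 pairs in liver, 9 of 30 in subcutaneous fat and 11 of 30 in visceral fat. Between the 2 fats on control diet, 0 of 5 same-numbered pairs did. These correlations cannot settle whether 1 mouse gave several tissues, because they rest on different groups or on few pairs.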

Additional observations from a re-analysis of the deposited data

Results flagged for a closer look

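Within groups of 5, the highest or lowest library stood apart from the others by Dixon's test in 25 of 96 checks of the summed level and of 7 named genes, where chance gives about 1 in 20.

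Most were in 3 libraries. In visceral control 5, the summed level of the 36 genes without the D cyclins was 1536 CPM, Ccnb1 was at 53.0, Top2a at 107 and Mki67 at 33.0 CPM. In subcutaneous control 2 the sum was 346 CPM, with Mki67 at 27.8, Top2a at 14.4, Rrm2 at 8.29 and Ccnd1 at 27.6 CPM. In subcutaneous Western NaKtide 1 it was 337 CPM, with Mki67 at 22.1, Top2a at 14.3, Rrm2 at 8.98, Ccnb1 at 4.56, Mcm6 at 22.0 and Tk1 at 8.45 CPM.

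Single values stood apart elsewhere. In liver these were control NaKtide 4, with Mki67 at 2.39, Ccnd1 at 10.5 and the lowest Tk1 of its group at 14.7 CPM, Western 1 with Top2a at 5.44, Western 4 with Mcm6 at 9.13 and control 2 with Ccnb1 at 0.874 CPM. In fat they were visceral control NaKtide 4 with Mki67 at 37.4, visceral Western 1 with Ccnb1 at 9.05 and subcutaneous control NaKtide 2 with the lowest Mcm6 of its group at 5.78 CPM.

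The effect of NaKtide differed between the diets for 12 genes by the interaction term, on the log2 scale. In liver the differences were -1.85 for Rrm2 and 1.75 for Tk1. In visceral fat, over all 20 libraries, they were -2.99 for Ccnd2, -2.996 for Ccne1, -2.79 for Cdt1, -1.69 for Mcm3, -2.14 for Mcm5, -1.84 for Mcm6, -3.01 for Tk1, -2.37 for Ccna2, -2.08 for Ube2c and -2.48 for Mki67.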

How the results depend on the processing

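Counts of called genes changed most when libraries were left out. The share of all genes called is not set beside the counts in this section. A change in a count is thus not a result about these genes alone. Without the 8 visceral libraries with testis or epididymis transcripts, the counts were 13 for Western diet, 8 for Western diet with NaKtide, 14 and 11 for NaKtide on control and Western diet, 23 for the interaction and 0 for the depots. Leaving out each library in turn gave, for Western diet, Western diet with NaKtide, NaKtide on control diet, NaKtide on Western diet and the interaction, 4 to 6, 10 to 14, 0 to 2, 0 to 7 and 2 to 5 in liver, 0 to 1, 0 to 1, 0, 0 and 0 in subcutaneous fat, and 4 to 15, 1 to 5, 3 to 15, 4 to 7 and 8 to 27 in visceral fat. The depots gave 1 to 19. In liver NaKtide on Western diet gave 7 without Western 1, 3 without Western NaKtide 1 and 0 without Western 3, and on control diet 0 without control 4 or control NaKtide 4. In visceral fat Western diet gave 15 without control 5, 4 without control 3 and 5 without control 4 or Western 3, 4 or 5; Western diet with NaKtide gave 1 without Western NaKtide 2 and 2 without Western NaKtide 4 or control NaKtide 2, 4 or 5; NaKtide on control diet gave 15 without control 5 and 3 without control NaKtide 2, 4 or 5. The depots gave 19 without visceral control 1 or 2. Without library 1 of both Western liver groups, NaKtide on Western diet and the interaction each called 7, and without the muscle-rich livers NaKtide on control diet called 0. Without the macrophage-rich subcutaneous libraries Western diet called 2. DESeq2 called 2 in liver for NaKtide on either diet, 1 in subcutaneous fat for Western diet, and 7 in visceral fat for Western diet with NaKtide, where no filter gave 1. With the replicate number as a block, NaKtide on control diet gave 0 in liver and 3 in visceral fat. Western diet gave 1 in subcutaneous fat, and the depots gave 4. The block changed no other count by over 1.5 times. The labels do not say that a replicate number marks a shared mouse. Directions turned in visceral fat for Rrm2 without the 8 libraries (log2 difference 1.62 for Western diet and 1.62 for NaKtide on control diet). Over the fits that leave out 1 library, Top2a ranged from -0.97 to 1.88 for Western diet and from -0.95 to 1.95 for NaKtide on control diet, and the Ccnb1 interaction from -3.06 to 0.93, each turning without control 5. Between depots, differences turned without the 8 libraries for Ccnb1 (-0.10), Ccnb2 (-0.31), Cdc20 (-0.47), Aurka (-1.01), Top2a (-0.21), Cenpe (-0.27) and Prc1 (-0.80). With 1 library left out they ranged from -0.59 to 2.9999 for Aurka, -0.21 to 3.30 for Top2a, -0.043 to 3.81 for Cenpe and -0.39 to 3.11 for Prc1, turning without control 5. The cause was not tested. Low counts limit liver, where 15 genes were untested.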
